A study of Saccharomyces cerevisiae with 16 samples.

Results

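The genes by which baker's yeast takes up and breaks down proline, arginine and gamma-aminobutyric acid (GABA) were examined in the wine strain EC1118 of Saccharomyces cerevisiae. The set holds 10 genes, each measured by 1 probe that the array's annotation names for it, out of 6248 features. They are PUT1, PUT2, PUT3 and PUT4 for proline, CAR1 and CAR2 for arginine, and UGA1, UGA2, UGA3 and UGA4 for GABA. The synthetic grape must held 100 mg/L of assimilable nitrogen, as amino acids and ammonium chloride, beside glucose at 200 g/L. In 3 of the 4 groups they came from the third tank of a continuous fermentation run through 4 tanks, where the nitrogen of the must was used up. Into that tank ammonium (3 samples) or valine (3 samples) was fed until a new steady state, each in a flow under 3% of the feed rate that brought 100 mg/L more nitrogen, and 4 samples were taken before any addition. The remaining group held 4 samples from the stationary phase of batch cultures at 28 °C, taken at 164 g/L residual glucose, as in the third tank without addition. No residual glucose is given for the supplemented tank and no temperature for the continuous culture. Samplings of each continuous condition lay 24 h apart, and the labels do not name separate continuous cultures for them. Treatment therefore cannot be told apart from the time of the run, and p-values measure the spread between samplings, which may be technical.

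Proline enters the cell through the permease Put4, is oxidised in the mitochondrion by Put1 and then Put2, and leaves glutamate. Arginine is split by the arginase Car1 into urea and ornithine, and the transaminase Car2 turns ornithine into a precursor of proline, so that the arginine route runs into the proline route. GABA is imported by Uga4, and Uga1 and Uga2 convert it to succinate while its nitrogen passes to glutamate. Put3 and Uga3 are the zinc cluster activators of the PUT and UGA genes. In laboratory yeast the permease genes of such poor nitrogen sources are known to be repressed when a preferred source such as ammonium is present, a response called nitrogen catabolite repression.

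All levels are log2 intensities deposited by the authors, in which 1 unit is a doubling of signal, and differences are log2 fold changes with their standard error (SE) from limma. A difference was called when its p, adjusted by the Benjamini-Hochberg method over all 6248 features, was under 0.05. Array medians were nearly equal, and array maxima lay between 15.82 and 15.96. PUT1, PUT2 and PUT4 reached levels above 14, near that upper end, where differences can be compressed. Of the further genes described below, GAP1, DUR3 and GLN1 did so too. Toward the lower end lay UME6 (group means of 6.57 to 6.95), ALP1 with ammonium (6.42) and valine (6.51), and ARG80 without addition (6.96). No detection calls were used to tell such levels from background. The values are relative to the whole of each array, and in bulk cultures fewer cells that express a gene and less RNA per cell cannot be told apart. Ammonium sample 3 was measured on 2 arrays, which were averaged. Over all features ammonium sample 2, valine sample 3 and batch sample 1 lay farthest from the others of their groups.

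With ammonium, the 2 permease genes and the 4 enzyme genes of proline and GABA use were lower than without addition, the 2 activator genes were higher, and the 2 arginine genes were not called. That is 2 of 10 genes higher and 6 of 10 lower, where 32.1% of all features were called higher and 35.5% lower. The median difference over the 10 genes was -0.92, against -0.02 over all features. With valine, the same permease and enzyme genes were lower and the same activators higher, and CAR1 and CAR2 were lower too. This makes 2 of 10 higher and 8 of 10 lower, beside 32.3% and 35.6% of all features, with a median of -0.81 against -0.01. Both supplements were compared with the same 4 samples without addition, so these 2 counts are not independent of each other.

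Set directly against valine, ammonium left PUT4 and PUT2 lower and CAR1 and CAR2 higher. These were 2 of 10 genes called higher and 2 of 10 lower, with 7.59% of all features called higher and 8.79% lower, and the median was -0.17 against 0.01 over all features. Without addition, cells of the third tank had higher CAR1, CAR2, PUT2, PUT3, UGA1 and UGA2 than batch cells, and lower UGA4, UGA3 and PUT1, while PUT4 was not called. Here 6 of 10 genes were higher and 3 of 10 lower, where 30.3% of all features were called higher and 27.0% lower, with medians of 0.20 and 0.02. Since calls were frequent over the whole array, the sizes of the differences below say more than the counts.

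**Figure D1:**
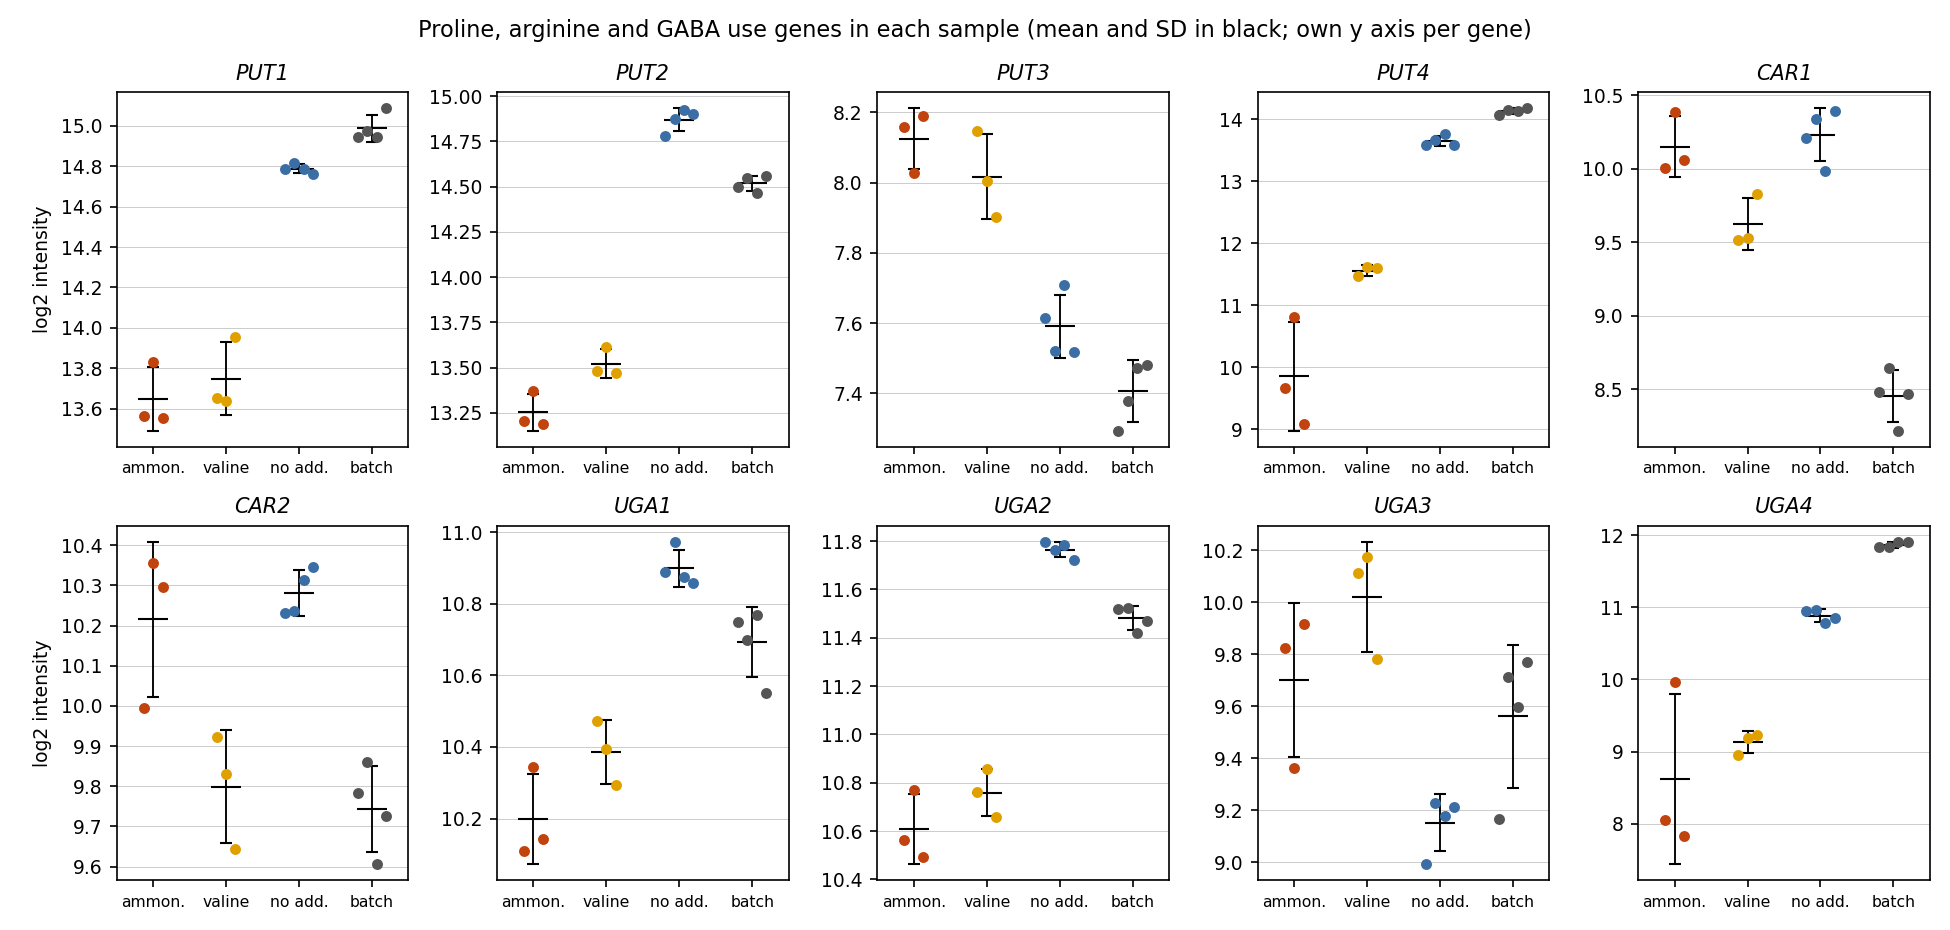
Log2 intensity of the 10 genes in each sample (points) of the ammonium (ammon.), valine, no addition (no add.) and batch groups, with the group mean and SD in black (n = 3, 3, 4 and 4) and a separate vertical axis for each gene. PUT4 and UGA4 span the widest ranges between group means, at 4.28 and 3.25 on the log2 scale, and ammonium sample 2 lies above the other ammonium samples in both.

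PUT4, the high-affinity proline permease gene, spanned the widest range of the set. It stood at 9.66, 10.81 and 9.08 in ammonium samples 1 to 3, at 11.46, 11.62 and 11.59 in valine samples 1 to 3, at 13.59, 13.66, 13.76 and 13.58 in the samples without addition and at 14.06, 14.14, 14.14 and 14.18 in batch samples. No sample of one group reached the range of another. The level with ammonium was 13.9-fold below that without addition, a log2 fold change of -3.79 ± 0.26 (SE, adjusted p = 9.69e-09), and 10 of 6248 features fell further. With valine the fall was 4.26-fold (-2.09 ± 0.26, adjusted p = 5.23e-06). Ammonium lay below valine by 1.70 ± 0.28 on the log2 scale (log2 fold change -1.70, adjusted p = 0.00111), and 9 features had a larger decrease in that comparison. Cells without addition and batch cells differed by -0.48 ± 0.24 (adjusted p = 0.0999), which was not called although their samples did not overlap. The SD was 0.88 with ammonium, 0.08 with valine, 0.08 without addition and 0.05 in batch. The fit used 1 estimate of the spread for all groups, which is smaller than the ammonium SD. The errors and p of the ammonium differences therefore understate the spread of the ammonium samples. A fit of the no-addition and batch samples only, which leaves out the ammonium spread, called the difference between those 2 groups (adjusted p = 4.37e-05).

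The GABA permease gene UGA4 had the same order of group means as PUT4. Its levels were 8.05, 9.97 and 7.84 in ammonium samples 1 to 3, 8.95, 9.20 and 9.24 in valine samples, 10.95, 10.96, 10.78 and 10.85 without addition and 11.83, 11.83, 11.90 and 11.91 in batch samples. Both supplements left it below every sample without addition, and ammonium sample 2 lay above all valine samples, so that the ammonium and valine groups overlapped. It was 4.80-fold lower with ammonium (-2.26 ± 0.35, adjusted p = 3.95e-05) and 3.37-fold lower with valine (-1.75 ± 0.35, adjusted p = 4.02e-04) than without addition. Ammonium minus valine was -0.51 ± 0.37, with a 95% interval of -1.30 to 0.28 (adjusted p = 0.386). Cells without addition were lower than batch cells by a log2 fold change of -0.98 ± 0.32 (adjusted p = 0.0167). The SD was 1.18 with ammonium, 0.15 with valine, 0.09 without addition and 0.04 in batch. As all groups shared 1 estimate of the spread, the ammonium spread enters each of these errors. That estimate is smaller than the ammonium SD itself. The errors and p of the ammonium differences therefore understate the spread of the ammonium samples.

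How far the supplements differed in these permease genes varied with the ammonium sample left out. Without sample 2, ammonium minus valine became -1.19 ± 0.09 for UGA4 (adjusted p = 1.82e-06) and -2.18 ± 0.12 for PUT4 (adjusted p = 9.60e-08). Without sample 3 the same differences were -0.12 for UGA4 (adjusted p = 0.875) and -1.32 for PUT4 (adjusted p = 0.00221), and without sample 1 they were -0.23 and -1.61. PUT4 was thus called and UGA4 not called without sample 1 or 3. Against no addition, the differences with ammonium became -2.94 for UGA4 and -4.27 for PUT4 without sample 2. Sample 2 was also the ammonium sample nearest to the no-addition mean in 9 of the 10 genes, all but CAR2, and in 57.5% of all features. Its part in the results, beyond these values, was not tested.

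**Figure D2:**
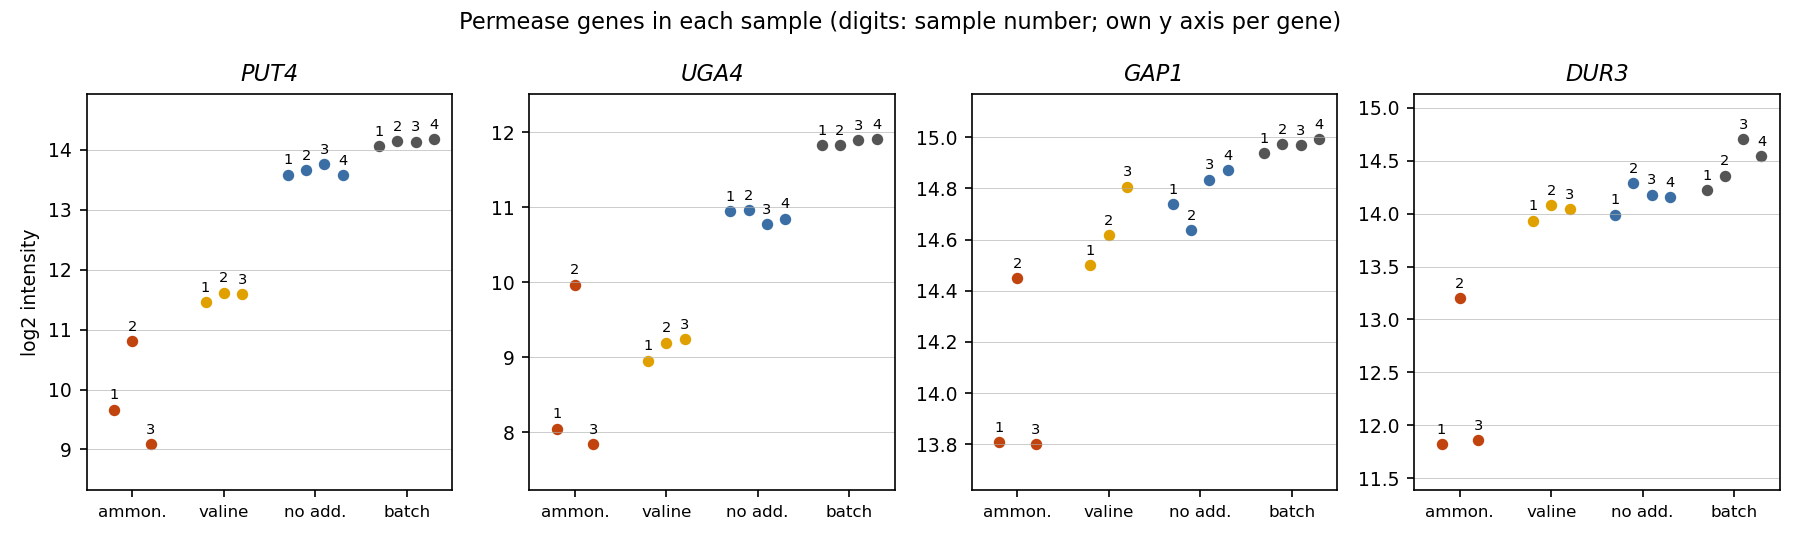
Log2 intensity of the proline permease gene PUT4, the GABA permease gene UGA4, the general amino acid permease gene GAP1 and the urea and polyamine permease gene DUR3 in each sample, with the sample number above each point and a separate vertical axis for each gene. Ammonium sample 2 stands above ammonium samples 1 and 3 in all 4 genes, by 1.43 for PUT4, 2.03 for UGA4, 0.64 for GAP1 and 1.36 for DUR3.

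The genes of the mitochondrial enzymes of proline breakdown were lower with either supplement. PUT1, which encodes proline oxidase, had 13.56, 13.83 and 13.55 in ammonium samples, 13.65, 13.63 and 13.96 in valine samples, 14.79, 14.82, 14.78 and 14.76 without addition and 14.95, 14.98, 14.95 and 15.09 in batch samples. The supplemented groups overlapped each other and lay clearly below the rest. The change from no addition was 2.20-fold with ammonium (-1.14 ± 0.08, adjusted p = 1.68e-08) and 2.06-fold with valine (-1.04 ± 0.08, adjusted p = 4.96e-08). Ammonium minus valine was -0.10 ± 0.09, with a 95% interval of -0.29 to 0.09 (adjusted p = 0.477). Without addition PUT1 was below batch by -0.20 ± 0.08 (adjusted p = 0.0350), a call that ended without any single no-addition sample (adjusted p = 0.0524 to 0.0732), without batch sample 2 (0.0585) or 4 (0.101), and with the replicate block (adjusted p = 0.0579).

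PUT2, the gene of the dehydrogenase that makes glutamate from the product of Put1, fell with both supplements. It had 13.20, 13.37 and 13.19 in ammonium samples, 13.48, 13.61 and 13.47 in valine samples, 14.78, 14.88, 14.93 and 14.90 without addition and 14.50, 14.55, 14.47 and 14.56 in batch samples. No 2 groups overlapped. It was 3.06-fold lower with ammonium (-1.62 ± 0.06, adjusted p = 2.17e-11) and 2.55-fold lower with valine (-1.35 ± 0.06, adjusted p = 1.45e-10) than without addition. Ammonium was below valine by -0.27 ± 0.06 (adjusted p = 0.0110), a call lost without ammonium sample 3 (adjusted p = 0.0506) or valine sample 2 (0.0646), and in a fit of these 2 groups only (0.0557). Unlike PUT1, PUT2 was higher without addition than in batch, by 0.35 ± 0.05 (adjusted p = 7.24e-05).

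The enzyme genes of GABA breakdown showed the same order of groups as PUT2. UGA2, for succinate semialdehyde dehydrogenase, had 10.56, 10.77 and 10.49 in ammonium samples, 10.76, 10.86 and 10.66 in valine samples, 11.79, 11.76, 11.78 and 11.72 without addition and 11.52, 11.52, 11.42 and 11.47 in batch samples. UGA1, for GABA transaminase, had 10.11, 10.34 and 10.14 in ammonium samples, 10.47, 10.39 and 10.29 in valine samples, 10.89, 10.97, 10.88 and 10.86 without addition and 10.75, 10.70, 10.77 and 10.55 in batch samples. In both genes the supplemented groups overlapped each other, and every supplemented sample lay below every no-addition and batch sample. UGA2 was 2.23-fold lower with ammonium (-1.16 ± 0.07, adjusted p = 1.55e-09) and 2.01-fold lower with valine (-1.01 ± 0.07, adjusted p = 7.26e-09). UGA1 was 1.62-fold lower with ammonium (-0.70 ± 0.07, adjusted p = 5.26e-07) and 1.43-fold lower with valine (-0.51 ± 0.07, adjusted p = 1.32e-05). Ammonium minus valine was -0.15 ± 0.07 for UGA2 and -0.19 ± 0.07 for UGA1, neither of them called (adjusted p = 0.165 and 0.105). Without ammonium sample 2 both were called, at -0.23 for UGA2 (adjusted p = 0.0297) and -0.26 for UGA1 (adjusted p = 0.0340). Cells without addition exceeded batch cells by 0.28 ± 0.06 in UGA2 (adjusted p = 0.00114) and by 0.21 ± 0.06 in UGA1 (adjusted p = 0.0134).

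The arginine genes followed another pattern, in which the widest difference was between no addition and batch. CAR1, the arginase gene, had 10.01, 10.39 and 10.06 in ammonium samples, 9.52, 9.53 and 9.83 in valine samples, 10.21, 10.34, 9.98 and 10.39 without addition and 8.48, 8.64, 8.22 and 8.46 in batch samples. All samples of the continuous culture lay above all batch samples. Without addition CAR1 was 3.44-fold higher than in batch (1.78 ± 0.12, adjusted p = 2.12e-08), and 24 of 6248 features had a larger increase in that comparison. Ammonium and no addition overlapped, with a difference of -0.08 ± 0.12 and a 95% interval of -0.35 to 0.19 (adjusted p = 0.589). Under array weights that difference was -0.23 and was called (adjusted p = 0.0105). With valine CAR1 was 1.52-fold lower than without addition (-0.61 ± 0.12, adjusted p = 5.56e-04). The direct comparison put ammonium above valine by 0.53 ± 0.13 (adjusted p = 0.0163), and 61 features had a larger increase. That call ended with slide as a block (adjusted p = 0.0522) and without ammonium sample 2 (0.0670), valine sample 1 (0.0677) or valine sample 2 (0.0765).

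CAR2, for ornithine transaminase, had differences of the same sign as CAR1 in all 4 comparisons, and each was smaller. It had 9.99, 10.35 and 10.30 in ammonium samples, 9.92, 9.83 and 9.64 in valine samples, 10.23, 10.24, 10.31 and 10.34 without addition and 9.78, 9.86, 9.61 and 9.73 in batch samples. Valine samples overlapped with batch samples, and ammonium samples with those without addition. The difference between no addition and batch was 0.54 ± 0.08 (adjusted p = 6.52e-05), and that between valine and no addition was -0.48 ± 0.09 (adjusted p = 2.27e-04). Ammonium minus no addition was -0.07 ± 0.09, with a 95% interval of -0.26 to 0.13 (adjusted p = 0.533). Ammonium exceeded valine by 0.42 ± 0.10 (adjusted p = 0.00942), which was no longer called in a fit of just these groups (adjusted p = 0.0503) or without ammonium 2, valine 3 and batch 1 together (0.0595).

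With either supplement the genes of the activators were higher, while the PUT and UGA enzyme and permease genes were lower. PUT3 had 8.16, 8.03 and 8.19 in ammonium samples, 8.15, 8.00 and 7.90 in valine samples, 7.62, 7.52, 7.71 and 7.52 without addition and 7.29, 7.38, 7.47 and 7.48 in batch samples. Every supplemented sample lay above every other sample, and ammonium and valine overlapped. PUT3 rose by 0.53 ± 0.07 with ammonium (adjusted p = 1.21e-05) and by 0.43 ± 0.07 with valine (adjusted p = 1.06e-04). The difference between no addition and batch, 0.18 ± 0.07 (adjusted p = 0.0291), was not called without no-addition sample 1 or 3 or batch sample 1 or 2 (adjusted p = 0.0644 to 0.0945) or with array weights (0.0862).

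UGA3 had 9.82, 9.36 and 9.92 in ammonium samples, 10.11, 10.17 and 9.78 in valine samples, 8.99, 9.23, 9.18 and 9.21 without addition and 9.17, 9.71, 9.60 and 9.77 in batch samples. It was higher with valine (0.87 ± 0.15, adjusted p = 1.43e-04) and with ammonium (0.55 ± 0.15, adjusted p = 0.00535) than without addition, and no supplemented sample fell in the no-addition range. Batch sample 1 lay within that range, whereas the other batch samples lay above it. The lower level without addition than in batch (-0.41 ± 0.14, adjusted p = 0.0229) lost its call without no-addition sample 1 (adjusted p = 0.0695), batch sample 2 (0.0671) or batch sample 4 (0.0735) and with slide as a block (0.0524). Ammonium minus valine was -0.32 ± 0.16 (adjusted p = 0.204).

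**Figure D3:**
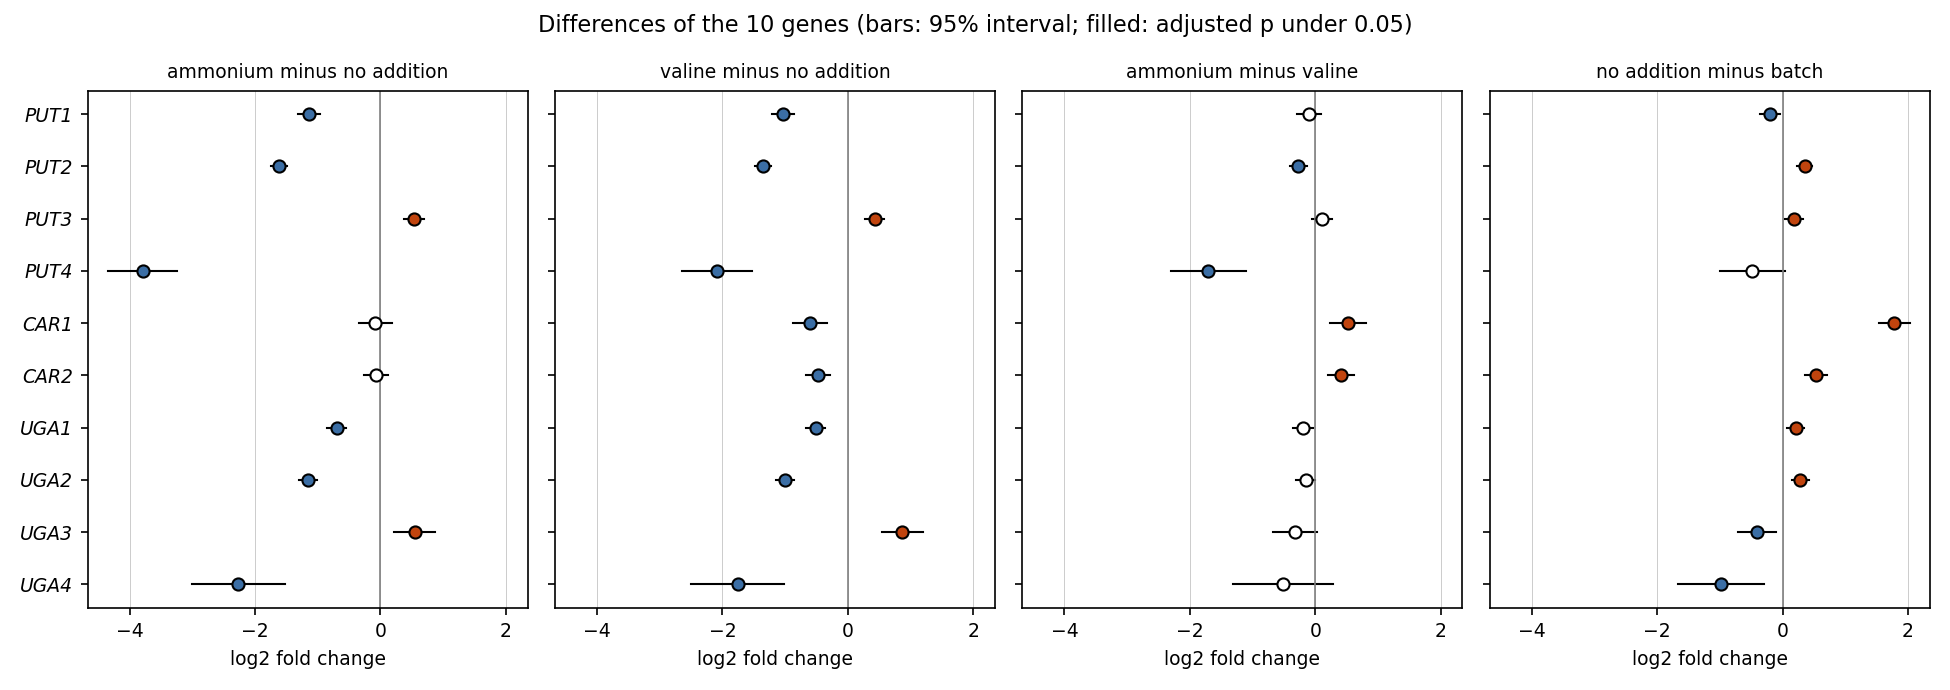
Log2 fold changes of the 10 genes (rows) in the 4 comparisons (panels), with bars for the 95% interval and filled points for an adjusted p under 0.05. The left panels show PUT4 at -3.79 with ammonium and -2.09 with valine, and the right panel shows CAR1 at 1.78 without addition against batch.

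Over all 6 pairs of groups, the levels fell into a few orders. PUT4, UGA4 and PUT1 ran from lowest with ammonium through valine and no addition to highest in batch. In UGA4 and PUT1 the ammonium and valine levels were not separated, and in PUT4 no addition and batch were not. PUT2, UGA1 and UGA2 ran from lowest with ammonium through valine and batch to highest without addition, and ammonium and valine were separated in PUT2 alone of these 3. CAR1 and CAR2 were highest with ammonium and without addition, which were not separated, then came valine, and batch was lowest. Valine and batch were separated in CAR1 (1.17 ± 0.12, adjusted p = 9.47e-07) but not in CAR2 (0.05 ± 0.09, adjusted p = 0.614). PUT3 was highest with ammonium and valine, not separated, then no addition, then batch. UGA3 was highest with valine, then ammonium, then batch, of which no neighbouring pair was separated, and lowest without addition. Among all features 68.7% were called between ammonium and batch and 66.5% between valine and batch, beside 9 of the 10 genes in each of these comparisons. UGA3 (0.14 ± 0.15, adjusted p = 0.440) was the gene not called with ammonium and CAR2 the one not called with valine.

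Every group had arrays on both slides used: slide 1 carried 1 ammonium, 2 valine, 1 no-addition and 3 batch arrays, and slide 2 carried 3 ammonium, 1 valine, 3 no-addition and 1 batch array. All 10 genes kept the sign of their difference in each of the 4 comparisons with slide as a block and within either slide. For ammonium against no addition PUT4 was at -4.61 within slide 1 and -3.78 within slide 2, UGA4 at -3.18 and -2.22, and PUT2 at -1.54 and -1.66. Within slide 1 these values set 1 ammonium array against 1 no-addition array, and their errors come only from the valine and batch arrays, so calls there are no replicate check of that difference. Within slide 2, with 3 arrays in each of these groups, 2 genes were called higher and 6 lower. Of all features, 2018 were called higher and 2206 lower there. Calls were thus frequent over the whole array within slide 2 too, and the gene count alone does not set these genes apart. More generally, a group with 1 array on a slide was assumed to vary like the others. For valine against no addition PUT4 was at -2.05 and -2.07, UGA4 at -1.87 and -1.62, and CAR1 at -0.69 and -0.41. CAR1 and UGA4 were not called within slide 2, where valine had 1 array and the error also took in the spread of the 3 ammonium arrays. In ammonium against valine PUT4 was at -2.55 within slide 1 and -1.71 within slide 2, and UGA4 at -1.31 and -0.59. The 1 ammonium array of slide 1 was of sample 3, which had the lowest PUT4 and UGA4 levels of the ammonium samples. As slide 2 held 1 valine array, calls within either slide are no replicate check of this difference. PUT4 was called within slide 1 only (adjusted p = 8.74e-04, and 0.116 within slide 2), and PUT2, CAR1 and CAR2 were called within neither slide (adjusted p = 0.0797 to 0.389). Of all features 38 were called within slide 1 and 228 within slide 2 in that comparison. Without addition against batch, CAR1 was at 1.83 within slide 1 and 1.59 within slide 2, both called. There PUT1, PUT3 and UGA1 were called within neither slide, PUT2 and UGA3 not within slide 1, and CAR2, UGA2 and UGA4 not within slide 2.

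The neighbouring steps of these routes were described from a list of 27 further genes, of which 26 were measured and DUR1,2 was not matched to a probe. With ammonium 7 of the 26 were higher and 11 lower than without addition, beside 32.1% and 35.5% of all features, with a median of -0.11 against -0.02 over all features. With valine 11 were higher and 7 lower, beside 32.3% and 35.6%, with a median of 0.10 against -0.01. Ammonium against valine gave 1 higher and 7 lower, beside 7.59% and 8.79%, with a median of -0.11 against 0.01. No addition against batch gave 5 higher and 12 lower, beside 30.3% and 27.0%, with a median of -0.17 against 0.02.

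The genes of proline synthesis from glutamate ran opposite to the enzyme genes of proline breakdown with the supplements. PRO1, for glutamate kinase, had 8.96, 8.54 and 8.85 in ammonium samples and 9.01, 8.96 and 8.76 in valine samples, against 7.78, 7.76, 7.89 and 7.86 without addition. It rose by 0.96 with ammonium (adjusted p = 3.26e-06) and by 1.09 with valine (adjusted p = 1.00e-06). PRO2, for the next enzyme, rose by 0.60 and 0.65. PRO3, for the enzyme that makes proline both in this route and from arginine, rose by 0.16 (adjusted p = 0.0203) and 0.23 (adjusted p = 0.00207). So all 3 genes were called higher with each supplement, and ammonium minus valine had an adjusted p of 0.468 to 0.540 for them. PRO3 was also higher without addition than in batch, by 0.43 (adjusted p = 8.19e-06), and was the only gene of the 3 called there.

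GAD1, for the glutamate decarboxylase that makes GABA, fell with both supplements, as did UGA1, UGA2 and UGA4. Its levels were 10.53, 11.29 and 10.59 in ammonium samples and 10.67, 10.72 and 10.52 in valine samples, against 12.15, 12.20, 12.47 and 12.10 without addition. The changes were -1.43 with ammonium (adjusted p = 1.58e-06) and -1.59 with valine (adjusted p = 5.41e-07). DAL81, a co-activator of the UGA genes, moved little, at 0.10 with ammonium (adjusted p = 0.115) and 0.22 with valine (adjusted p = 0.00162).

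Among the genes of arginine and ornithine transport and the polyamine branch, ammonium and valine differed in CAN1, GAP1 and ORT1. The arginine permease gene CAN1 was lower with ammonium (-0.68, adjusted p = 3.75e-05) and was at -0.22 with valine (adjusted p = 0.0731), and ammonium minus valine was -0.46 (adjusted p = 0.0122). GAP1, the general amino acid permease gene, which also takes up proline and GABA, had 13.81, 14.45 and 13.80 with ammonium, 14.50, 14.62 and 14.81 with valine, and 14.74, 14.64, 14.83 and 14.87 without addition. It was lower with ammonium than with valine (-0.62, adjusted p = 0.00758), and valine minus no addition was -0.13 (adjusted p = 0.389). ALP1, a basic amino acid permease gene similar to CAN1, was lower with both supplements (-1.28 and -1.18). ORT1, the mitochondrial ornithine carrier gene, was higher with both (0.52 and 0.90) and less so with ammonium than with valine (-0.38, adjusted p = 0.0129). SPE1, for ornithine decarboxylase, was at -0.08 and 0.06 and was not called with either. ORT1 was higher without addition than in batch (0.31), whereas CAN1 (-0.49), ALP1 (-0.26) and SPE1 (-0.37) were lower there.

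DUR3, a permease gene for urea, the by-product of arginase, was lower with ammonium than with valine. It had 11.82, 13.20 and 11.86 in ammonium samples, 13.93, 14.08 and 14.04 in valine samples, and 13.99, 14.29, 14.18 and 14.16 without addition. The difference from no addition was -1.86 with ammonium (adjusted p = 9.85e-06) and -0.13 with valine (adjusted p = 0.647). Ammonium minus valine was -1.73 (adjusted p = 6.65e-04), and -2.18 without ammonium sample 2. The SD was 0.79 with ammonium and 0.08 with valine, so the shared estimate of the spread understates that of the ammonium samples here too. No addition minus batch was -0.30 (adjusted p = 0.275).

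Of the 5 regulators of the CAR genes, ARG80 rose with both supplements (0.51 and 0.55) and was lower without addition than in batch (-0.66, adjusted p = 8.07e-05). ARG82 fell with both (-0.78 and -0.54) and was higher without addition than in batch (0.56, adjusted p = 1.32e-05). UME6, a repressor of CAR1, fell with both (-0.25 and -0.36) and was at -0.02 between no addition and batch. ARG81 rose with valine (0.19), and MCM1 was called with neither supplement. Both were lower without addition than in batch (-0.35 and -0.30). Among the GATA factors and URE2, DAL80, a repressor of UGA4 and other nitrogen genes, fell 2.01-fold with ammonium (adjusted p = 1.61e-06) and fell with valine (-0.66, adjusted p = 1.00e-04). URE2, which holds back the activator Gln3, rose by 0.37 and 0.48. GLN3, GAT1 and GZF3 were called with neither supplement, and GAT1 was at -0.33 with ammonium (adjusted p = 0.00559) without ammonium sample 2. Without addition DAL80 was higher than in batch (0.26, adjusted p = 0.0428), and GAT1 (-0.30), GZF3 (-0.56) and URE2 (-0.33) were lower.

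Glutamate, in which the proline, arginine and GABA routes meet, is used by GDH2, the glutamate dehydrogenase gene that releases ammonium. GDH2 had 10.53, 10.53 and 10.49 in ammonium samples, 12.60, 13.04 and 12.86 in valine samples, and 12.45, 12.64, 12.49 and 12.54 without addition. It fell with ammonium (-2.01, adjusted p = 8.00e-11) and rose with valine (0.30, adjusted p = 0.00595), so that ammonium minus valine was -2.31 (adjusted p = 1.37e-09). Here ammonium sample 2 stood with the other ammonium samples. GDH1, the gene of an enzyme of glutamate synthesis, rose with both (2.22 and 1.07). It was higher with ammonium than with valine (1.15, adjusted p = 1.29e-05). GDH3, its relative of slow-growing cells, fell with both (-1.64 and -1.63). GLN1, for glutamine synthetase, rose with valine (0.64, adjusted p = 6.51e-05) and was at 0.12 with ammonium (adjusted p = 0.332), and GLT1, for glutamate synthase, fell with valine (-0.33) and with ammonium (-0.16, adjusted p = 0.0470), a call that ended without ammonium sample 2 (-0.10, adjusted p = 0.206). Between no addition and batch GDH1 was higher (0.34), GDH3 (-0.75) and GLN1 (-0.39) were lower, and GDH2 and GLT1 were not called. GDH1 and GDH3, like CAN1 and ALP1, are similar in sequence, and whether their probes share signal was not tested.

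**Figure D4:**
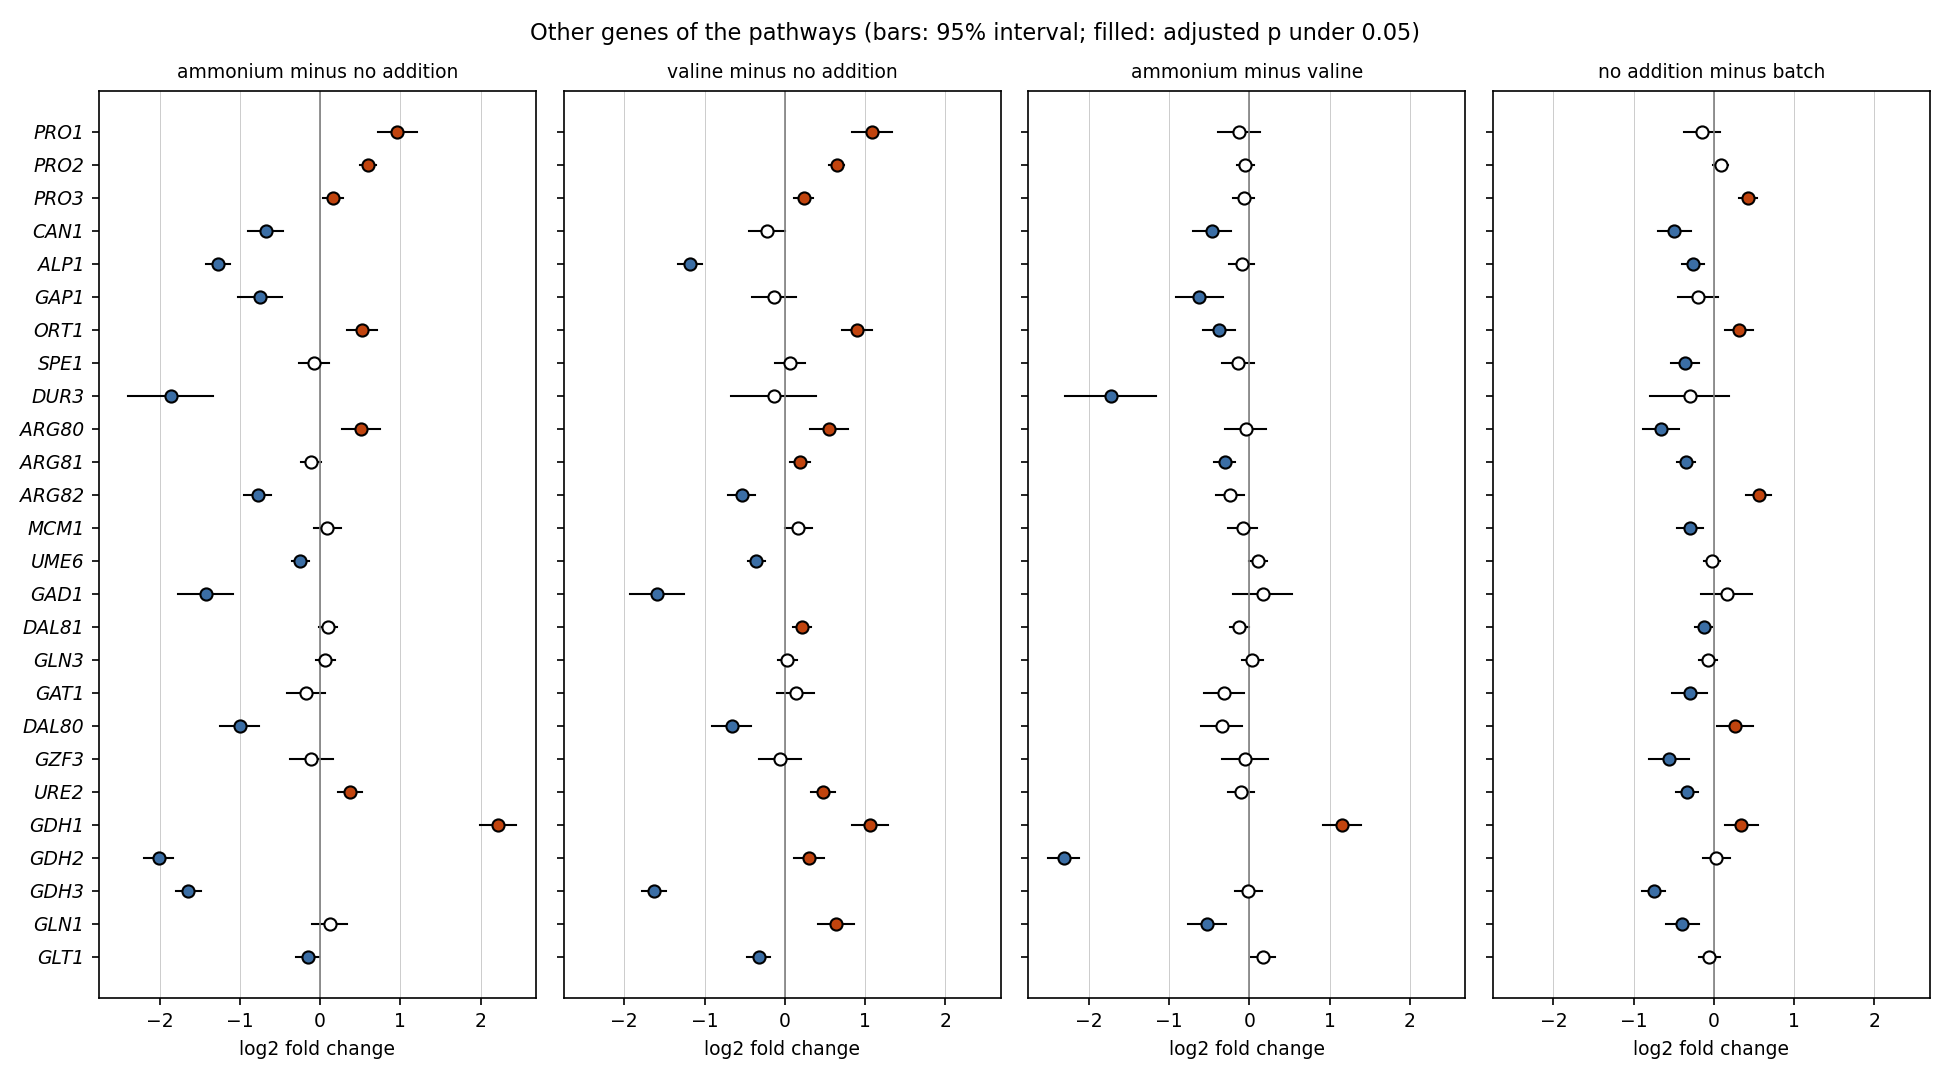
Log2 fold changes of 26 further genes around proline, arginine, GABA and glutamate (rows) in the 4 comparisons (panels), with bars for the 95% interval and filled points for an adjusted p under 0.05. PRO1, PRO2 and PRO3 lie right of 0 with either supplement, while DUR3 and GDH2 lie far left of 0 with ammonium (-1.86 and -2.01) but at -0.13 and 0.30 with valine.

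Across the 14 samples, the closest likeness within the set was between PUT2 and UGA2, with a Pearson correlation of 0.99 as a description. PUT4 and UGA4 had 0.95, PUT1 and PUT3 -0.96, and CAR1 and CAR2 0.81, while CAR1 and PUT2 had -0.19. These points share arrays and fall into 4 groups, so the values mostly restate the differences between group means. Of named genes outside the set, the nearest to PUT4 was ECM38 (0.99), for the enzyme that breaks down glutathione in the vacuole. The nearest to UGA4 was GAC1 (0.98), a regulator of glycogen synthesis, and the nearest to PUT1 was ACH1 (0.99), a mitochondrial CoA transferase. The nearest to PUT2 was GCY1 (0.99), a glycerol dehydrogenase, and the nearest to UGA2 was RCR2 (0.99). For CAR1 it was BET2 (0.97), for CAR2 the mitochondrial factor MSS51 (0.92), for UGA1 the guanine deaminase gene GUD1 (0.97), for PUT3 APL6 (0.98) and for UGA3 TAF12 (0.96).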

How the data were processed

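Total RNA of 16 arrays was labelled with Cy3 in 1 colour. The authors deposited 1 value per probe, a log2 intensity as judged from the range of the values. R 2.13.1 and limma are named in the submitters' processing notes. How the values were normalized, background-corrected and averaged over spots is not given in the sources used here. No detection calls or scanner files were used. All arrays had almost the same distribution, so scale and centring are known only so far, and the direction is that of single-dye intensity. Precision is limited by how many arrays there are.

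Of 6271 probes 5220 had 1 gene symbol, 1051 none and 0 several; 51 symbols were updated through RefSeq's R64 gene table, 5167 were current and 2 unmatched. Probes of a gene were averaged, giving 6248 features, with no filter. The sample whose labels name both supplements was left out of all comparisons, and the 2 arrays of ammonium sample 3 were averaged, leaving 14 samples. Differences were tested two-sided with limma 3.58.1 in R 4.3.3 (lmFit, eBayes, 1 mean per group, 10 residual degrees of freedom), after a test on simulated data. Figures were drawn with matplotlib 3.10.9 in Python 3.11.15. The 10 genes, the 7 lists of further genes and the rule of naming, for each of the 10, its 3 most correlated named genes (the first is printed) were chosen with earlier results of these data known. Replicate numbers recur between groups: deviations of same-numbered samples correlated at -0.57 to 0.31 over 19 pairs, so the numbers were not taken to pair samples. Promoter motifs were not searched and no sequence is shown, as no sequence tables were used here.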

Additional observations from a re-analysis of the deposited data

Results flagged for a closer look

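The sample whose labels name ammonium in some fields and valine in others, which entered no comparison, had a PUT3 level of 8.01 on the log2 scale. This was above all 4 samples without addition, which reached 7.71 at most, and above all 4 batch samples. The other 9 genes did not exceed the highest of these 8 samples in it. Its PUT3 level lay within the range of the valine samples (7.90 to 8.15) and just below that of the ammonium samples (8.03 to 8.19).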

How the results depend on the processing

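Over 27 alternatives, the differences of the 10 genes over all 6 pairs of groups gave 1547 values with the same sign and call, 50 that lost a call, 18 that gained one and 5 that changed sign. The 5 were small and not called in the main fit: CAR2 in ammonium minus no addition was -0.14 to 0.0443 when 1 sample was left out, PUT1 in ammonium minus valine -0.19 to 0.00297, and CAR2 in valine minus batch -0.00658 to 0.13. Within slide 2, CAR2 in valine minus batch was -0.21 and UGA3 in ammonium minus batch -0.0418. Rescaling (quantile again, or medians subtracted) moved no difference by more than 0.05 and changed 0 calls.

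In ammonium against valine, of all features, 474 were called higher and 549 lower. Those higher were 302 with only these groups fitted, 300 with slide as a block, 6 within slide 1, 55 within slide 2, 1286 with array weights, 761 without ammonium 2, valine 3 and batch 1, and 192 to 639 when 1 sample was left out. Those lower were 32 within slide 1, 173 within slide 2, 1185 with array weights and 309 to 683 with 1 sample left out. Of the 10 genes, 2 were called higher, against 1 with only these groups, 1 with slide as a block, 0 within slide 1, 0 within slide 2, 1 without the 3 samples and 1 to 2 with 1 left out. The 2 called lower became 1 with only these groups, 5 with array weights, 6 without the 3 samples and 1 to 5 with 1 left out. Without the 3 samples 1576 of all features were called in either direction, so the rise to 6 came with more calls over the whole array. Leaving out the 3 samples was chosen after seeing the data, and the estimation of array weights stopped with a warning that it had not reached its convergence tolerance.

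Within slide 1, ammonium against no addition had 1214 features higher and 1263 lower (2008 and 2216 in all), and valine against no addition 1330 and 1419 (2019 and 2223 in all). No addition against batch had 826 higher and 856 lower within slide 1 and 1249 higher within slide 2 (1896 and 1686 in all). With 1 sample left out, its members called higher were 5 to 6, beside 1740 to 2028 of all features. Those called lower were 1 to 4, beside 1563 to 1834. Fewer samples enter the fit within a slide. With the replicate block, 300 features were called higher in ammonium against valine, and of the 10 genes only PUT1 lost a call, in no addition against batch (adjusted p = 0.0579).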

Other observations

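In the sample with both supplements in its labels, PUT4 stood at 9.35, UGA4 at 8.12, PUT1 at 13.62, PUT2 at 13.05, UGA1 at 10.08 and UGA2 at 10.16. CAR1 was at 9.85, CAR2 at 9.87 and UGA3 at 9.53. PUT1, PUT2, PUT4, CAR1, CAR2, UGA1, UGA2 and UGA4 were below the lowest sample without addition in it. Its PUT4, UGA4, PUT1 and UGA3 levels lay within the range of the ammonium samples and below every valine sample. PUT3 and CAR2 lay within the valine range and below every ammonium sample. PUT2, CAR1, UGA1 and UGA2 lay in neither range. Which supplement the sample received was not tested.

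The 2 arrays of ammonium sample 3, on different slides, differed by at most 0.25 in any of the 10 genes, in UGA2, and by 0.20 in PUT4 and 0.15 in UGA4. Over all features the SD of their difference was 0.17.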
